A study of Mus musculus with 20 samples.

Results

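The voltage-gated sodium and calcium channel genes were followed through the amygdala of descendants of stressed mice. They were taken by name, as every gene of the count table whose symbol begins with Scn, a number and a or b, or with Cacna1, Cacna2d or Cacnb. The rule found 32 of 29671 genes and used no measured value. They were 10 alpha and 4 beta subunits of sodium channels, and 10 alpha1, 4 alpha2delta and 4 beta subunits of calcium channels.

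Messenger RNA was sequenced from amygdala punches, taken on both sides, of male C57B6 mice, 20 in all, aged 84 days. The 4 groups held 5 mice each: F2 stress lineage, F2 no-stress lineage, F1 stress lineage and F1 no-stress lineage. F1 and F2 are the first and the second generation after a chronic unpredictable stress procedure, which the ancestors of the stress lineage went through and those of the no-stress lineage did not. The sampled mice themselves had no behavioural testing, all came from in-house breeding of a strain first obtained from Taconic, and the labels name no sire, litter or batch. Per the series title the stress was given in adolescence, and the question is what it leaves in the amygdala of descendants.

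Library totals lay between 13654890 and 13714805 counts, a spread of 0.439%, so 1 count stood for 0.0732 CPM, the unit of counts scaled to library size used throughout. Of 29671 genes 16727 passed the filter on low counts, and 30 of the 32 channel genes were among them. Markers of the amygdala (8 of 8 genes, summed 822.4 to 1497 CPM) and of neurons (5 of 5) were present in every library. Most of the amygdala sum came from Slc17a7 and Gad2, with means of 564.0 and 602.0 CPM. The other amygdala markers averaged from 5.06 CPM for Crh to 27.2 CPM for Dlk1, so the sum says little about them. A striatal score was taken as the mean log2 CPM of 18 markers of striatal spiny neurons. A pallial score was taken likewise from 14 markers of cortical-type excitatory neurons. The pallial and the amygdala list share genes. Neither score tells cells of the amygdala from those of adjoining tissue that a punch could hold. F2 stress replicate 14 stood apart with the lowest striatal score, 4.75, where the other 19 libraries lay between 5.93 and 8.45. F2 no-stress replicate 20 had the lowest pallial score, 3.11, with F1 stress replicate 3 next at 3.79.

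An alpha subunit of a sodium channel forms the pore that opens at the start of an action potential, and beta subunits, which are also adhesion proteins, tune its gating and placement. In a calcium channel the alpha1 subunit forms the pore, while alpha2delta and beta subunits govern how many channels reach the membrane and how they open. P/Q-type and N-type channels trigger transmitter release, L-type channels couple firing to gene expression, R-type channels serve dendrites and terminals, and T-type channels open near rest and shape burst firing.

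Among sodium channel alpha subunits, Scn2a, the main subunit of excitatory neurons, had the highest mean level per length, 47.6 CPM per kilobase of its longest transcript. Scn8a, the subunit of initial segments and nodes of Ranvier, had 29.0 CPM per kilobase. Scn1a, the subunit of fast-spiking interneurons, had 19.8 and Scn3a, best known from the embryonic brain, had 9.12 CPM per kilobase. Scn2a had 399.6, 535.7, 420.5, 458.8 and 333.3 CPM in F2 stress mice and 382.5, 381.4, 398.3, 381.3 and 312.0 CPM in F2 no-stress mice. It had 512.7, 489.3, 419.3, 433.8 and 476.3 CPM in F1 stress mice and 411.0, 398.3, 465.7, 391.3 and 504.1 CPM in F1 no-stress mice. These ranges overlapped in both generations, and the highest library had 1.72 times the lowest.

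Other alpha subunits were low. Scn9a, Scn10a and Scn11a, subunits of peripheral sensory neurons, had 1.06, 0.463 and 0.200 CPM per kilobase, and Scn7a, an atypical channel that senses extracellular sodium, had 0.390. Of 5 markers of peripheral sensory neurons 4 were in the table and 2 passed the filter, with summed levels of 1.69 to 16.2 CPM. Scn4a, the skeletal muscle subunit, was above 0 in 6 of 20 libraries, with at most 4 counts in one, and was not tested. Skeletal muscle markers (1 of 5 tested) summed to 2.15 to 6.97 CPM. The genes Scn3a, Scn2a, Scn1a, Scn9a and Scn7a lie in a cluster on chromosome 2 of GRCm38, and Scn10a and Scn11a lie on chromosome 9. Their coding sequences are related, and no source used here says how reads that map to several places were counted.

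Sodium channel beta subunits were high, with 148.0 CPM per kilobase for Scn4b, 76.1 for Scn2b and 47.5 for Scn3b. Scn4b, the subunit tied to resurgent sodium current and abundant in striatal spiny neurons, varied most. It had 412.6, 912.5, 376.7, 18.9 and 1697 CPM in F2 stress mice and 1620, 916.1, 480.3, 211.5 and 517.1 CPM in F2 no-stress mice. It had 854.5, 151.9, 460.6, 417.5 and 386.9 CPM in F1 stress mice and 274.3, 1053, 905.6, 1756 and 1323 CPM in F1 no-stress mice. The highest library thus had 92.7 times the level of the lowest, F2 stress replicate 14, and the lineages overlapped in both generations. Its neighbour on chromosome 9, Scn2b (start 45117782, end 45130070, against start 45138395, end 45154152 for Scn4b, both on the plus strand), ranged only 1.35-fold.

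Among pore-forming calcium channel subunits the R-type Cacna1e stood first with 26.9 CPM per kilobase, followed by the N-type Cacna1b (13.8) and the P/Q-type Cacna1a (12.8). The T-type genes Cacna1i, Cacna1h and Cacna1g had 9.05, 9.02 and 8.39 CPM per kilobase, and the L-type genes Cacna1c and Cacna1d had 9.01 and 5.6. These T-type genes and Cacna1c overlapped across libraries, so their order is not resolved. Cacna1s of skeletal muscle had 0.190, and Cacna1f of the retina had 0.0259 CPM per kilobase, with at most 6 counts in a library, and was not tested. Cacna1e had 281.0, 405.8, 368.4, 388.7 and 290.7 CPM in F2 stress mice and 361.1, 571.7, 302.0, 399.5 and 500.0 CPM in F2 no-stress mice. In F1 it had 529.5, 424.9, 422.1, 468.2 and 383.9 CPM in stress mice and 322.7, 352.0, 431.7, 362.8 and 460.1 CPM in no-stress mice. The lineages overlapped, with the stress mean lower in F2 and higher in F1.

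Of the auxiliary calcium channel subunits, Cacna2d3 had 49.2, Cacna2d1 27.7, Cacna2d2 22.9 and the retinal Cacna2d4 0.401 CPM per kilobase. Cacna2d1 and Cacna2d2 encode the binding sites of gabapentin. Cacna2d3 had 161.3, 198.2, 146.5, 103.0 and 298.2 CPM in F2 stress mice and 251.0, 184.7, 131.1, 120.1 and 172.5 CPM in F2 no-stress mice. Its F1 levels were 206.5, 112.5, 164.8, 148.9 and 139.9 CPM in stress mice and 123.3, 218.4, 203.6, 285.6 and 262.4 CPM in no-stress mice. Its lowest and highest libraries were F2 stress replicates 14 and 15, the 2 libraries that also had the lowest and the highest striatal score. The beta subunit genes ran from 55.9 CPM per kilobase for Cacnb3 through 32.1 for Cacnb1 and 22.9 for Cacnb4 to 13 for Cacnb2. Cacnb3 had 121.8, 157.1, 110.3, 131.2 and 178.0 CPM in F2 stress mice and 198.8, 193.5, 212.2, 169.1 and 103.1 CPM in F2 no-stress mice. In F1 mice it had 172.6, 133.2, 100.4, 118.1 and 180.7 CPM in the stress lineage and 138.6, 128.4, 165.6, 181.4 and 162.8 CPM in the no-stress lineage. F2 no-stress replicate 20 lay below every F2 stress library, and 3 of the other 4 F2 no-stress libraries lay above every F2 stress library.

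**Figure D1:**
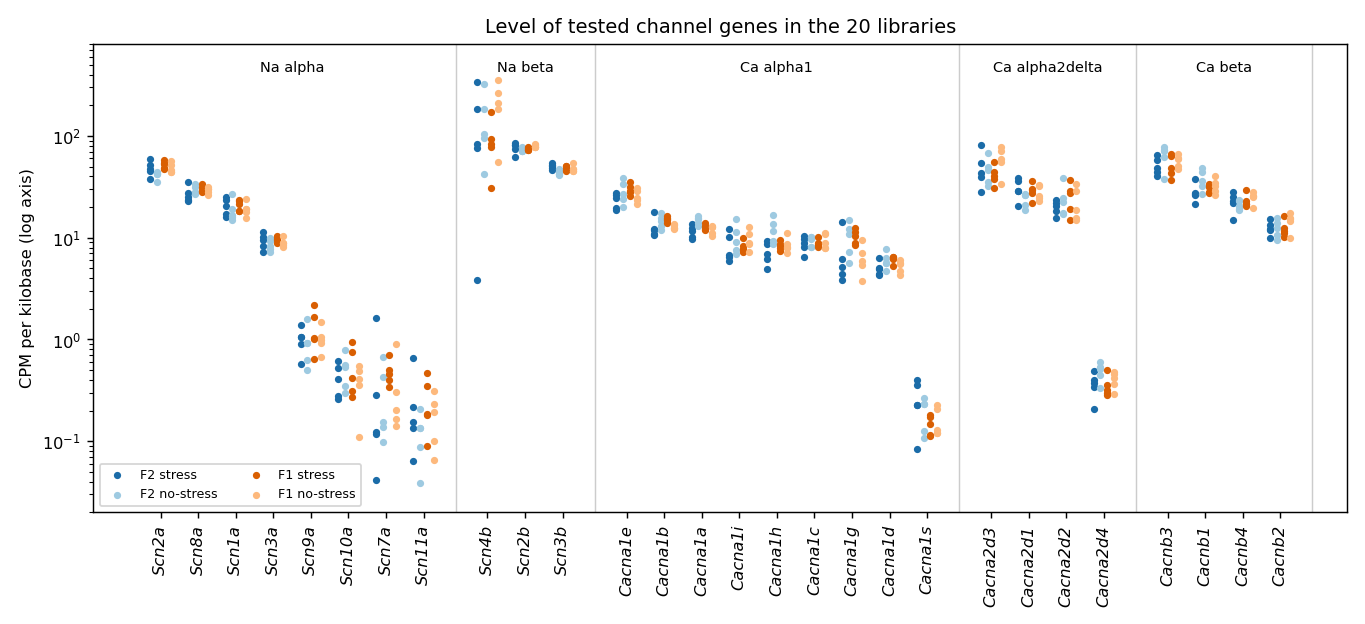
Level of 28 tested channel genes, as CPM per kilobase of the longest transcript (log axis), by subunit class; each point is 1 library, coloured by group. Scn4b lies highest on average and spreads most, and Scn10a, Scn7a, Scn11a, Cacna1s and Cacna2d4 lie below 1 in most libraries.

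In the F2 generation 2 of the 30 tested genes passed the test between stress and no-stress lineage, both lower in the stress lineage, a share of 6.67% beside 7.92% of all genes tested, of which 2.64% were higher and 5.28% lower (edgeR quasi-likelihood test, Benjamini-Hochberg adjusted p below 0.05 over 16727 genes). Both encode pore-forming calcium channel subunits. At an unadjusted p below 0.05 there were 6 channel genes, 4 lower and 2 higher, or 20% of the 30, where 25.6% of all genes had such a p. The share of channel genes called was thus no higher than that of all genes.

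Cacna1h, a T-type pore subunit, had 40.6, 57.4, 51.3, 71.5 and 75.9 CPM in F2 stress mice, against 137.1, 111.8, 70.6, 76.0 and 96.2 CPM in F2 no-stress mice. The 3 lowest libraries were of the stress lineage and the 4 highest of the no-stress lineage, with an overlap between 70.6 and 75.9 CPM. Means were 59.3 ± 14.5 CPM in F2 stress and 98.4 ± 27.2 CPM in F2 no-stress mice (SD, n = 5 each), a log2 fold change of −0.73 ± 0.18 (SE, edgeR, adjusted p = 0.0195). In F1 the means were 68.8 ± 6.61 CPM in stress and 70.4 ± 12.3 CPM in no-stress mice, and the log2 fold change was −0.03 ± 0.18 (adjusted p = 0.968).

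Cacna1a, the pore subunit of P/Q-type channels, had 76.6, 108.4, 98.0, 91.6 and 81.0 CPM in F2 stress mice, against 130.5, 124.6, 109.6, 104.3 and 121.0 CPM in F2 no-stress mice. Stress replicate 12 lay above no-stress replicate 19, and all other stress libraries lay below all no-stress libraries. Means were 91.1 ± 12.8 CPM in F2 stress and 118.0 ± 10.8 CPM in F2 no-stress mice (SD, n = 5 each), a log2 fold change of −0.37 ± 0.09 (SE, edgeR, adjusted p = 0.0212). In F1 the means were 100.7 ± 6.24 CPM in stress and 95.2 ± 8.93 CPM in no-stress mice, a log2 fold change of 0.08 ± 0.09 (adjusted p = 0.825).

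Cacna1h lost its call without any one of F2 stress replicates 11, 12 and 13 or F2 no-stress replicates 16 and 17 (adjusted p up to 0.0683), and Cacna1a lost it without F2 stress replicate 11 or F2 no-stress replicates 16 or 17 (up to 0.0754). With only the 10 F2 libraries in the edgeR fit 0 channel genes and 0 of all genes passed, with 5 channel genes at an unadjusted p below 0.05. Without replicates 14 (F2 stress) and 20 (F2 no-stress) together, 5 genes passed and all were lower in the stress lineage. These were Cacna1h (−0.81), Cacna1a (−0.37), the beta subunit gene Cacnb1 (−0.53), the T-type gene Cacna1g (−1.03) and the N-type gene Cacna1b (−0.32), with adjusted p from 0.0155 to 0.0354. The number of all genes called moved with left-out libraries too. It was 1324 with all libraries and 241 to 2431 with single libraries left out. The 5 are thus not read as particular to channel genes.

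**Figure D2:**
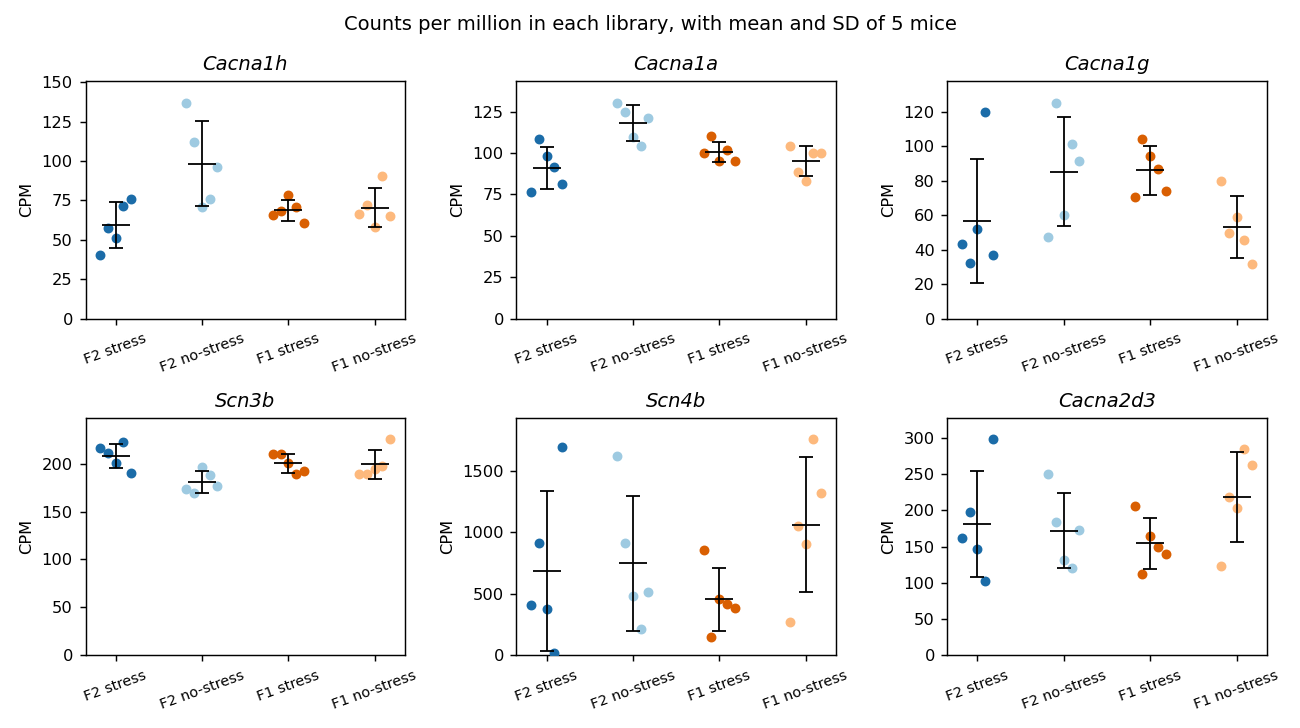
CPM of 6 channel genes in each library of the 4 groups; points are mice, horizontal marks are means and bars SD of 5 mice. Cacna1h and Cacna1a are lower in F2 stress than in F2 no-stress mice with some overlap, Cacna1g has 1 F2 stress library at 119.6 CPM, and Scn4b and Cacna2d3 spread widely within every group.

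The other channel genes did not pass in F2. Pore-forming calcium channel subunits lay below 0 in 8 of 9 tested genes, with a median log2 fold change of −0.27 against 0.00 for all genes. Cacna1d (−0.27 ± 0.13, adjusted p = 0.184), Cacna1e (−0.30 ± 0.15, 0.227) and Cacna1g (−0.58 ± 0.33, 0.269) were among these 8, and Cacna1s, at 1.18 CPM on average, had a value of 0.42 ± 0.34. With a library's own trend over GC content and transcript length removed as an offset, 5 of the 9 lay below 0, with a median of −0.04. Cacna1g had 43.1, 32.5, 51.9, 119.6 and 37.0 CPM in F2 stress mice and 47.6, 125.3, 60.3, 101.5 and 91.6 CPM in F2 no-stress mice. F2 stress replicate 14 stood far above the other 4 stress libraries. Beta subunits of the calcium channel lay between −0.43 for Cacnb1 (adjusted p = 0.0793) and 0.11 for Cacnb4, and alpha2delta subunits between −0.42 for Cacna2d4 and 0.36 ± 0.16 for Cacna2d1 (adjusted p = 0.165).

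Sodium channel alpha subunits lay above 0 in F2 in 6 of 9 genes, with a median log2 fold change of 0.13 and an adjusted p of 0.234 or more. The closest to a call among sodium channel genes was the beta subunit gene Scn3b, with 216.0, 210.9, 200.4, 222.5 and 190.1 CPM in F2 stress mice, against 173.3, 169.6, 195.9, 188.6 and 176.6 CPM in F2 no-stress mice. Only stress replicate 15 fell among the no-stress libraries. The log2 fold change was 0.20 ± 0.07 (edgeR, adjusted p = 0.072), and it passed in DESeq2 (adjusted p = 0.0194).

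In the F1 generation 0 of the 30 channel genes passed in edgeR, beside 0% of all genes, and 2 had an unadjusted p below 0.05, or 6.67% of 30 against 6.16% of all genes; DESeq2 and limma-voom called 0 channel genes too. The 2 were Cacna1b, with 148.2 ± 7.76 CPM in F1 stress and 124.5 ± 6.03 CPM in F1 no-stress mice (SD, n = 5 each; log2 fold change 0.25 ± 0.12, adjusted p = 0.739), and Cacna1g (0.69 ± 0.33, adjusted p = 0.739). Cacna1b was above all no-stress libraries in every F1 stress library, and Scn2b was below all of them, with at most 358.6 CPM in F1 stress and at least 359.8 CPM in F1 no-stress mice. Such a separation, in either direction, was found in these 2 of 30 channel genes and in 1.24% of all tested genes. All 9 sodium channel alpha subunits had positive values, with a median of 0.35 against 0.00 for all genes. With the GC and length offset 1 of the 9 lay below 0, with a median of 0.22. Without the offset the well-expressed Scn2a, Scn1a and Scn3a had 0.10, 0.12 and 0.14. Scn8a had 0.06, Scn10a 0.50 and Scn11a 0.51, and none of the 9 had an unadjusted p below 0.05. All 4 calcium channel beta subunits had negative values, from −0.24 for Cacnb2 to −0.08 for Cacnb1. The largest negative value in F1 was that of Scn4b, −1.23 ± 0.75 (adjusted p = 0.739), with means of 454.3 ± 253.7 CPM in F1 stress and 1062 ± 546.5 CPM in F1 no-stress mice (SD, n = 5 each). The striatal score moved the same way, with 6.82 ± 0.55 in F1 stress and 7.60 ± 0.75 in F1 no-stress mice (p = 0.103, two-sided exact permutation test), and its part in the Scn4b value was not tested.

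**Figure D3:**
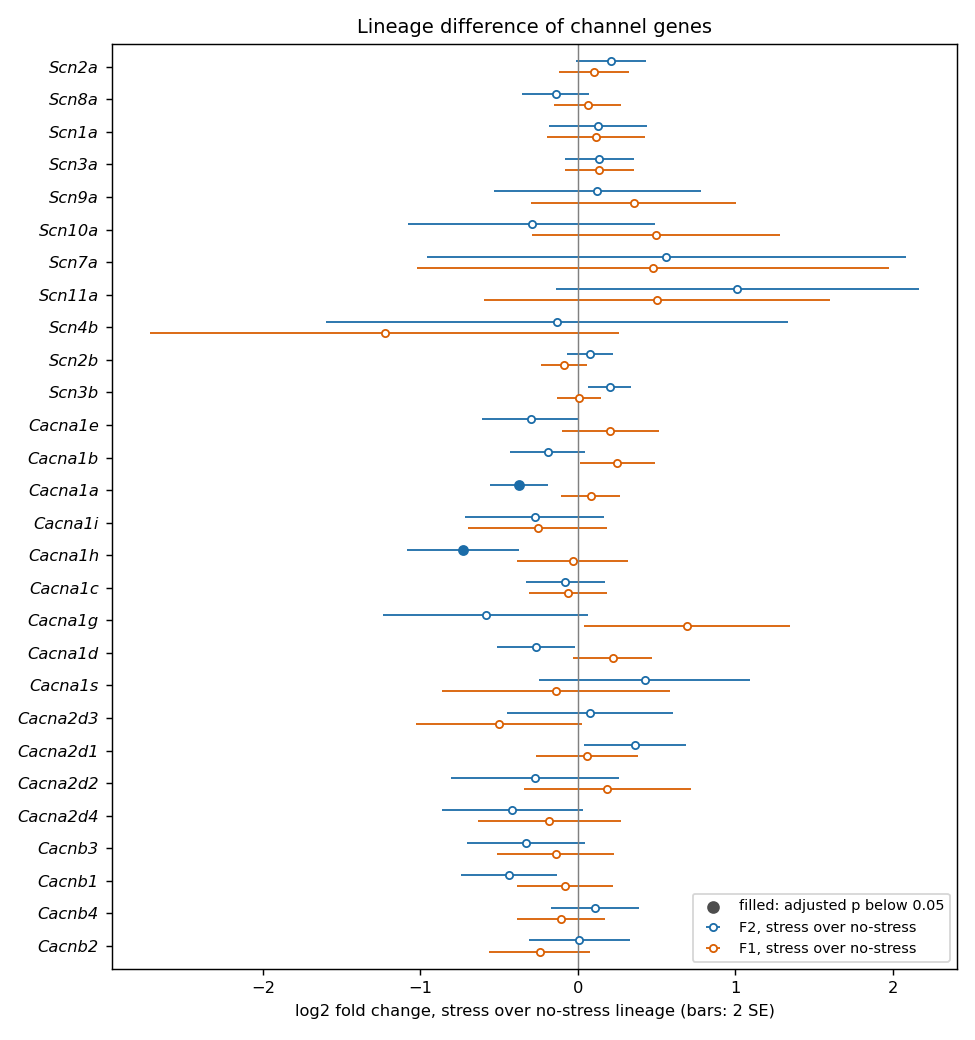
Log2 fold change of stress over no-stress lineage in F2 (upper symbol) and F1 (lower symbol) for 28 tested channel genes; bars are 2 SE on either side and filled symbols passed at an adjusted p below 0.05. Only Cacna1h and Cacna1a in F2 are filled, and Scn4b, Scn7a and Scn11a have the widest bars.

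The lineage effect in F2 was then set against that in F1 in a test of their difference. In this edgeR test 0 of 30 channel genes passed, beside 2.52% of all genes (0.837% higher and 1.68% lower), and 6 had an unadjusted p below 0.05 (20% of 30, against 21.2% of all genes). All 6 encode pore-forming calcium channel subunits and were lower in F2 than in F1 relative to the no-stress lineage. Their differences on the log2 scale were −0.45 ± 0.13 for Cacna1a (adjusted p = 0.0644), −0.70 ± 0.25 for Cacna1h, −0.49 ± 0.18 for Cacna1d, −1.28 ± 0.46 for Cacna1g, −0.44 ± 0.17 for Cacna1b and −0.51 ± 0.22 for Cacna1e (adjusted p from 0.116 to 0.185). DESeq2 called Cacna1a and Cacna1g (adjusted p = 0.0262 and 0.0469). Without F2 stress replicate 14 edgeR called 4 channel genes. Of all genes 0 to 1501 were called when single libraries were left out, and 421 with all libraries. With the GC and length offset 0 passed and 2 channel genes had an unadjusted p below 0.05, and Cacna1a turned to 0.06.

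Between generations 0 of 30 channel genes passed in either lineage (edgeR), where 0.012% of all genes passed in the stress lineage and 2% (1.47% higher, 0.532% lower) in the no-stress lineage. In the stress lineage 4 channel genes had an unadjusted p below 0.05, beside 6.99% of all genes, and DESeq2 called 0. In the no-stress lineage 2 channel genes had such a p, beside 20.2% of all genes, and DESeq2 called 1. The no-stress comparison uses the same F2 no-stress libraries as the F2 lineage comparison. Cacna1a had 118.0 ± 10.8 CPM in F2 and 95.2 ± 8.93 CPM in F1 no-stress mice (SD, n = 5 each), with every F2 library above every F1 library and a log2 fold change of 0.31 ± 0.09 (adjusted p = 0.0782, against 0.0390 in DESeq2). The lowest F2 library had 104.3 CPM and the highest F1 library 104.0 CPM. Such a separation, in either direction, was found in this 1 of 30 channel genes and in 4.52% of all tested genes. With the GC and length offset the Cacna1a value was −0.00022. Cacna1h had a value of 0.48 ± 0.18 there (adjusted p = 0.134). In the stress lineage the value was −0.14 ± 0.09 for Cacna1a and −0.21 ± 0.18 for Cacna1h, and the smallest adjusted p was 0.668, that of Cacna1d (−0.30 ± 0.12).

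The 2 genes that passed in F2 have GC-rich transcripts, 60.0% G or C in Cacna1h and 58.4% in Cacna1a, higher than 95.9% and 92.2% of tested genes. Scn3b, with 47.8%, and Cacna2d1, with 40.7%, had positive values. Their base composition is shown by 90 bases of coding sequence each, the stretch within 1 coding exon whose GC content is closest to that of the whole transcript, read 5′ to 3′ from GRCm38 with G and C in capitals. The windows lie in exon 6 of Cacna1h (chr17:25395347-25395436, minus strand), exon 1 of Cacna1a (chr8:84415821-84415910, plus strand), exon 4 of Scn3b (chr9:40279428-40279517, plus strand) and exon 3 of Cacna2d1 (chr5:16025749-16025838, plus strand), exons being numbered in the longest GENCODE transcript.
Cacna1h: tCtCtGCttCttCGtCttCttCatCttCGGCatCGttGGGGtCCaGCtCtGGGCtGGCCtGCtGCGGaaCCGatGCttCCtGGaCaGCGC
Cacna1a: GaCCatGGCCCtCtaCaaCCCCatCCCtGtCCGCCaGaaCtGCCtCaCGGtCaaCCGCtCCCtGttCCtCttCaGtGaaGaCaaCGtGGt
Scn3b: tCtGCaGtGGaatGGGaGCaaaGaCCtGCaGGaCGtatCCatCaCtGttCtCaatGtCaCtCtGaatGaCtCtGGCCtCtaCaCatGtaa
Cacna2d1: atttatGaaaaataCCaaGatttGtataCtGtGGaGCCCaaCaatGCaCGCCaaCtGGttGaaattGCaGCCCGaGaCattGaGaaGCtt
Of these 90 bases 54 were G or C in Cacna1h, 53 in Cacna1a, 43 in Scn3b and 37 in Cacna2d1.

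Across the 30 channel genes the F2 log2 fold change fell with transcript GC content, with a Spearman rho of −0.75, where all 16692 tested genes with a known GC content had −0.54. The corresponding rho in F1 was −0.16 for channel genes and 0.00 for all genes. These are descriptions across genes that share the same libraries. Sodium channel alpha genes of the chromosome 2 cluster lay at 40.2 to 43.4% GC and had F2 values of 0.12 to 0.21 and, for Scn7a, 0.56, which turned to −1.30 without replicates 14 (F2 stress) and 20 (F2 no-stress). By contrast Cacna1g, Cacna1a, Cacna1i, Cacnb1, Cacna1h and Cacnb3, at 58.1 to 61.3% GC, had values of −0.27 to −0.73. All tested genes within 2 percentage points of the GC content of Cacna1h had a median of −0.40, and those near Cacna1a had a median of −0.31, close to its own −0.37.

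The libraries differed in the same way. The trend of a library with GC content, taken over 10 GC bins as the deviation of the top bin's median gene less that of the bottom bin's (log2), was −0.19 ± 0.26 in F2 stress and 0.34 ± 0.27 in F2 no-stress mice (SD, n = 5 each; p = 0.0159, two-sided exact permutation test). It was −0.07 ± 0.14 in F1 stress and −0.07 ± 0.23 in F1 no-stress mice (exact permutation p = 1.0). When the GC and length trends of the libraries were an offset in edgeR, 0 channel genes and 8 of all genes passed in F2, with 3 channel genes at an unadjusted p below 0.05. The value was −0.29 for Cacna1h (adjusted p = 0.294) and 0.02 for Cacna1a (adjusted p = 0.940), which reversed its sign. The 30 genes had a median absolute log2 fold change of 0.116 with the offset and 0.269 without it. With the offset Scn3b had 0.17, against 0.20 without it (adjusted p = 0.246), and Cacna2d1 had 0.23, against 0.36 (adjusted p = 0.527). Of the 30 channel genes 8 changed sign in F2, among them Cacnb3 (0.13 with the offset) and Cacna1i (0.18).

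**Figure D4:**
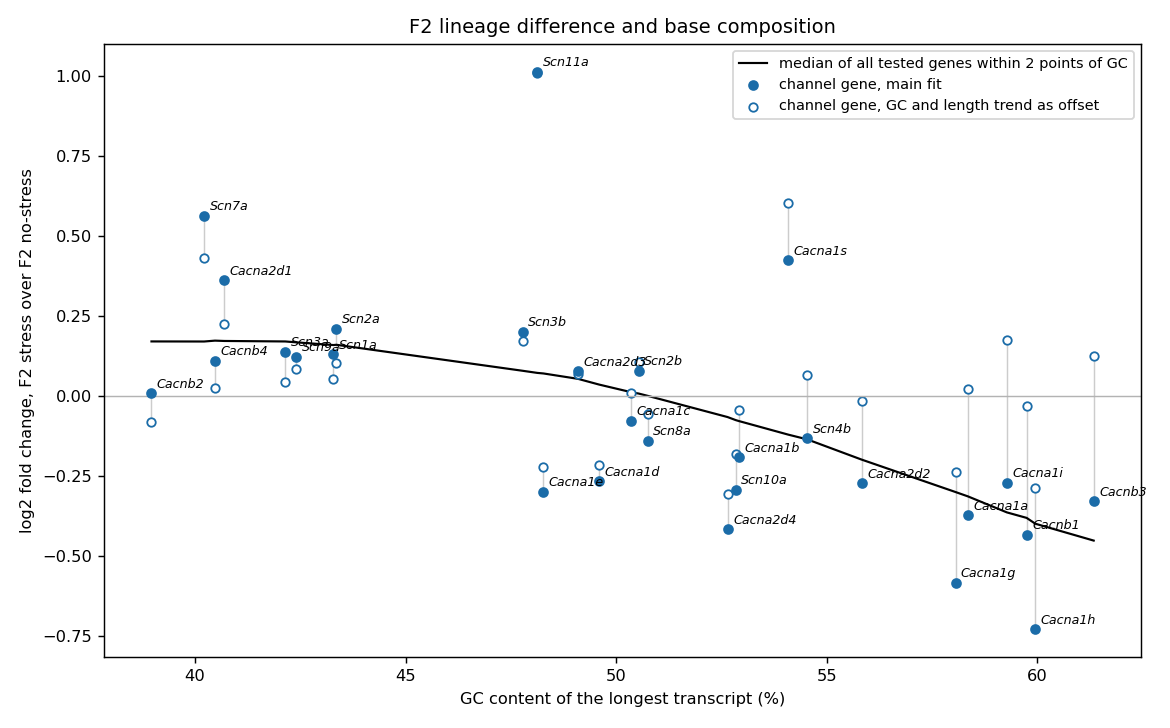
F2 log2 fold change of stress over no-stress lineage (filled) against the GC content of the longest transcript for 28 channel genes, and the same value with the GC and length trend of each library as an offset (open, joined by a line); the black line is the median of all tested genes within 2 percentage points. Filled points fall from left to right along the black line and open points lie closer to 0 for most genes.

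Several channel genes varied between mice together with the regional markers. Values were centred within the 4 groups, and the 30 genes were correlated with both scores over 20 libraries, 60 relations in all, with p from 100000 permutations within groups adjusted by Benjamini-Hochberg. In this test 9 genes varied with the striatal score and 6 others with the pallial score. The same 9 and 6 passed when the p was adjusted over both scores and all 16727 tested genes, a setting added after the data were seen. They were 30% and 20% of the 30 channel genes, where 10.9% of all genes varied with the striatal and 7.17% with the pallial score. In bulk tissue fewer cells of a type and less RNA per cell cannot be told apart. All 18 striatal markers were detected in every library, with summed levels of 1306 to 11633 CPM in F2 stress, 3350 to 10762 in F2 no-stress, 2364 to 6099 in F1 stress and 3085 to 10702 in F1 no-stress mice. All 14 pallial markers were tested, with summed levels of 2746 to 3838 CPM in F2 stress, 1727 to 4165 in F2 no-stress, 1646 to 4237 in F1 stress and 2101 to 3746 in F1 no-stress mice. None of the channel genes is among the markers.

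Scn4b followed the striatal score most closely (Pearson r = 0.980, permutation p = 1e-05, the smallest that this test can give, adjusted p = 0.0002; Spearman rho = 0.961, permutation p = 1e-05). Pearson r was 0.978 without the 2 libraries farthest from the median score, F2 stress replicates 14 and 15, and 0.980 in F2 and 0.994 in F1 libraries alone. Cacna2d3 came next (Pearson r = 0.959, permutation p = 1e-05, adjusted p = 0.0002; Spearman rho = 0.970, permutation p = 1e-05), with 0.970 without the same libraries, 0.962 in F2 and 0.980 in F1. The other genes that rose with the score were Cacnb4 (r = 0.847), Scn2b (0.844), the T-type gene Cacna1i (0.749) and Cacnb2 (0.703), with adjusted permutation p from 0.00072 to 0.00402. The 4 calcium channel genes that rose with the score came from 3 subunit classes. Genes lower where the score was high included Cacna1g (−0.780) and Scn11a (−0.751), with an adjusted permutation p of 0.0061 and 0.00674. Scn11a averaged 1.18 CPM, so its r rests on few counts. Spearman rho was 0.783 to 0.856 for those that rose and −0.716 and −0.725 for Cacna1g and Scn11a (permutation p from 2e-05 to 0.00254). Without the 2 farthest libraries these 6 genes kept values of 0.660 to 0.841 and of −0.658 and −0.736.

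With the pallial score, Cacna2d1 was highest (Pearson r = 0.754, permutation p = 1e-05, adjusted p = 0.0002; Spearman rho = 0.774, permutation p = 6e-05) and Cacna2d2 lowest (Pearson r = −0.848, permutation p = 6e-05, adjusted p = 0.00072; Spearman rho = −0.841, permutation p = 0.00012). Without F2 no-stress replicate 20 and F1 stress replicate 3, the libraries farthest from the median of this score, r was 0.710 for Cacna2d1 and −0.793 for Cacna2d2. Cacna2d1 had 0.632 in F2 and 0.911 in F1 libraries, and Cacna2d2 had −0.854 in F2 and −0.865 in F1. The 3 main alpha2delta genes were thus split, with Cacna2d3 following the striatal score and the gabapentin-site genes following the pallial score in opposite directions. Cacnb3 (r = 0.748) and Scn2a (0.620) also rose with the pallial score, and Scn1a (−0.663) and Scn9a (−0.750) fell with it (adjusted permutation p from 0.00402 to 0.0156), with a Spearman rho of 0.592, 0.635, −0.614 and −0.678 (permutation p from 0.00253 to 0.0114). Without the 2 farthest libraries these 4 had 0.470, 0.509, −0.475 and −0.578, and Cacnb3 and Scn1a no longer passed without F2 no-stress replicate 20 alone. Cacna1h (r = 0.317 with the striatal and −0.291 with the pallial score) and Cacna1a (−0.015 and −0.072) passed with neither (adjusted permutation p from 0.427 to 0.986).

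No difference between lineages was detectable in either score in F2, with striatal scores of 6.84 ± 1.36 in F2 stress and 7.32 ± 0.72 in F2 no-stress mice (SD, n = 5 each; p = 0.540, two-sided exact permutation test) and pallial scores of 5.10 ± 0.27 in F2 stress and 4.94 ± 1.09 in F2 no-stress mice (exact permutation p = 0.881). In F1 the pallial scores were 5.24 ± 0.88 in stress and 5.15 ± 0.63 in no-stress mice (exact permutation p = 0.857). With both scores, centred within groups, as covariates, 7 channel genes passed in F2. They were Cacna1h, Cacna1a, Cacna1g, Cacnb1 and Scn4b, which were lower, and Cacna2d1 and Scn3b, which were higher, or 23.3% of 30 beside 17% of all genes. In F1 3 passed, or 10% beside 1.36% of all genes, among them Scn4b (−1.20) and Cacna2d3 (−0.48), both lower. Centring leaves the difference between the group means of the scores in these fold changes.

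**Figure D5:**
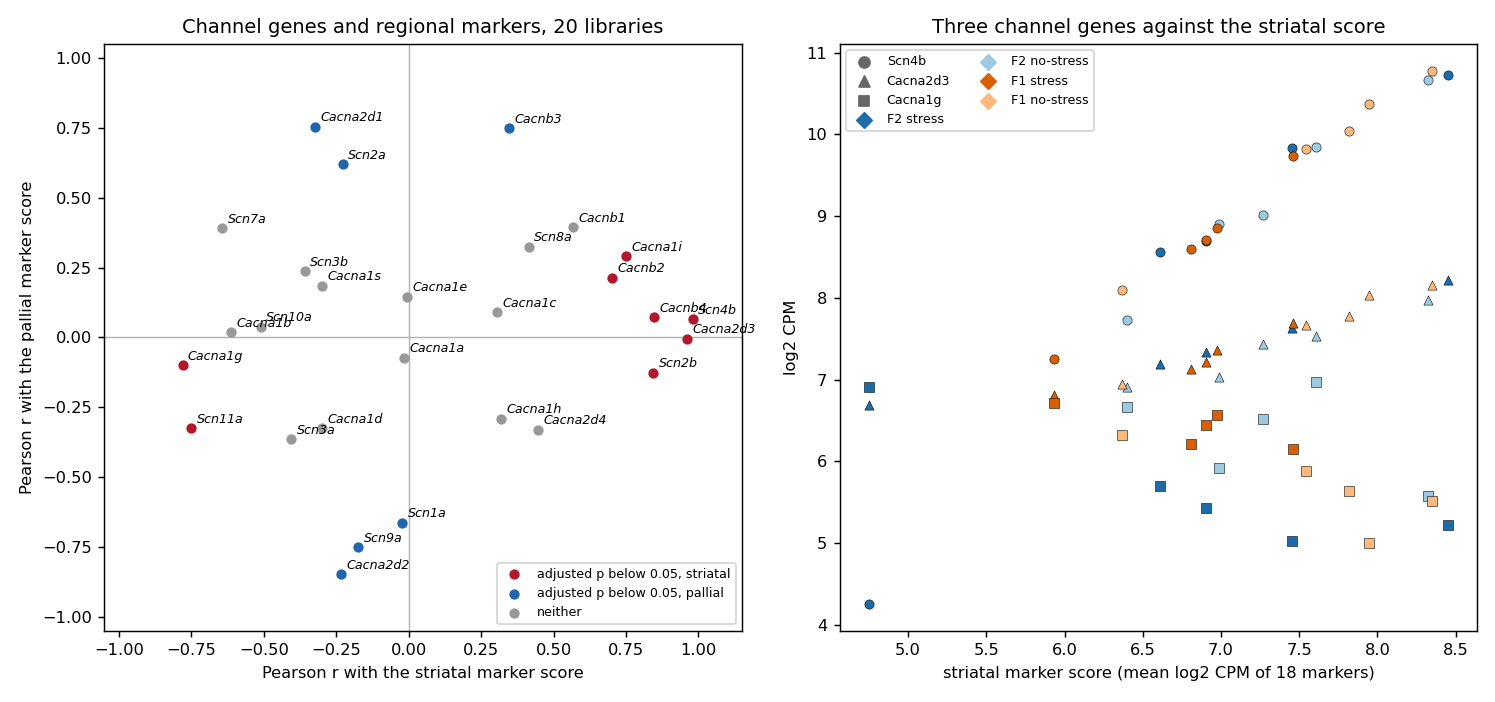
Left, Pearson r of 28 channel genes with the striatal score (horizontal) and the pallial score (vertical) over 20 libraries, values centred within groups. Right, log2 CPM of Scn4b, Cacna2d3 and Cacna1g against the striatal score, uncentred, 1 point per library: Scn4b and Cacna2d3 rise along the score, Cacna1g tends to be higher where it is low, and F2 stress replicate 14 lies at the left end at 4.75.

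Promoters are shown for the genes most closely tied to either score, since 3 of them belong to one subunit class and moved apart. RefSeq windows of 300 bases around the start (GRCm38.p6) were found for 24 of the 32 genes. They were searched on both strands for GGGCGG, the GC box, for TATAAA, for the E-boxes CAGCTG and CAGATG, and for TGACG. Capitals mark GGGCGG or its reverse complement CCGCCC. The windows are chr9:45138374-45138673 (plus) for Scn4b, chr14:29721815-29722114 (minus) for Cacna2d3, chr5:15934441-15934740 (plus) for Cacna2d1 and chr9:107399630-107399929 (plus) for Cacna2d2.
Scn4b: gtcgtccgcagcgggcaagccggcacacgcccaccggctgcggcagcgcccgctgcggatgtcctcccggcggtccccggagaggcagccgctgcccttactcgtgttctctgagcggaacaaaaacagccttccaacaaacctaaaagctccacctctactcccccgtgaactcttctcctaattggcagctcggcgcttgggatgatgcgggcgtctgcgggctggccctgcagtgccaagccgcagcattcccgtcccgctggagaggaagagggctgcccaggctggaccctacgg
Cacna2d3: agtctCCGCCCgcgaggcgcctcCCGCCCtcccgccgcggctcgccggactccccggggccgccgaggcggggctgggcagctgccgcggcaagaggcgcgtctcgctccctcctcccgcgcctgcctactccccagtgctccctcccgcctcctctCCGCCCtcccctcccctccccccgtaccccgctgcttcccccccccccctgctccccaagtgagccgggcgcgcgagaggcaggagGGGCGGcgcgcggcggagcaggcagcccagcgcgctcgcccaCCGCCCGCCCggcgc
Cacna2d1: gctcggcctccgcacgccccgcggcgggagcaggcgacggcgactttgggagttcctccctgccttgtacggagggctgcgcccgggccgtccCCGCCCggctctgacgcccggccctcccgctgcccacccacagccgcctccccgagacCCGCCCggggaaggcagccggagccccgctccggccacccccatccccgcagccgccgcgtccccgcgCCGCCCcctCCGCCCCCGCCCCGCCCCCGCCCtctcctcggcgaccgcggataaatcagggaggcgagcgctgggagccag
Cacna2d2: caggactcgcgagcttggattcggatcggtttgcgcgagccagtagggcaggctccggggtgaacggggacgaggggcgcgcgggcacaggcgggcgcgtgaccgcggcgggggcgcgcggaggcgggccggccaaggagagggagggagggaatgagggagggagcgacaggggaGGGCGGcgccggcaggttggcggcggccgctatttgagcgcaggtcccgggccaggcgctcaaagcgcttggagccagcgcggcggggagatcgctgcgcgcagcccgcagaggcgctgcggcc
The GC box occurred 6 times in Cacna2d3, 7 times in Cacna2d1, 1 time in Cacna2d2 and 0 times in Scn4b, counting overlaps. It occurred in 14 of the 34 windows of channel genes (41.2%) and in 35.7% of 32851 mouse promoters. The windows held 26 CpG in Scn4b, 41 in Cacna2d3, 42 in Cacna2d1 and 43 in Cacna2d2, against a median of 7 over all promoters. Windows of all channel genes ranged from 2 CpG in Scn2b, which rose with the striatal score, to 63 in a window of Cacna1d, which passed with neither score. Whether CpG number goes with either score was not tested. TATAAA occurred in 2 of 34 windows (5.88%, against 13.6% of all promoters), CAGCTG in 10 (29.4%, against 16.3%), CAGATG in 7 (20.6%, against 17.2%) and TGACG in 6 (17.6%, against 20.8%).

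Partner genes of these channels and of related complexes were taken as 7 lists, 47 tested genes in all. The lists include a separate sodium leak channel, receptor proteins related to gamma subunits and active zone genes, so not every product binds these channels. In F2 5 of them passed, 1 higher and 4 lower, or 10.6% beside 7.92% of all genes, and 0 passed in F1 in edgeR, DESeq2 or limma-voom, with 3 at an unadjusted p below 0.05 in edgeR. Of 5 anchors of the initial segment and node 1 was lower. This was Sptbn4, the spectrin that holds sodium channels at the initial segment, with 83.1 ± 11.8 CPM in F2 stress and 154.3 ± 35.4 CPM in F2 no-stress mice (SD, n = 5 each; log2 fold change −0.89 ± 0.15, adjusted p = 0.00560). All F2 stress libraries were below all F2 no-stress libraries. A separation in either direction was found in 4.61% of all tested genes and in 0 of 30 channel genes. The anchor Ank3 had −0.06 and Nfasc −0.19, without a call. Of 10 active zone genes Unc13a, a priming factor of synaptic vesicles, was lower (−0.49 ± 0.10, adjusted p = 0.0106), while Bsn (−0.42), Syt1 (0.22) and Snap25 (0.20) did not pass.

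Of 7 tested gamma subunits and related receptor proteins Cacng8 was lower (−0.50 ± 0.14, adjusted p = 0.0326). Of 7 modulators of sodium channels 1 was lower, while Cntn1 (0.21), Tnr (0.16) and Camk2d (0.35) did not pass. Of 4 genes of the sodium leak channel complex the pore gene Nalcn was higher (0.25 ± 0.07, adjusted p = 0.033). Of 11 calcium channel binding proteins, with Calm2 at 0.33, and of 4 fibroblast growth factor homologous factors, with Fgf12 at 0.40 (adjusted p = 0.0699), 0 passed in edgeR, with 4 and 2 at an unadjusted p below 0.05, and 1 of each list passed in DESeq2. In the test of F2 against F1 lineage effects 2 of 47 passed, or 4.26% beside 2.52% of all genes, Sptbn4 (−1.0 ± 0.20, adjusted p = 0.0309) and Unc13a (−0.52 ± 0.14, adjusted p = 0.0472). With the GC and length offset all 5 lost their call in F2. Values were then −0.33 for Sptbn4, −0.22 for Unc13a, 0.03 for Cacng8 and 0.17 for Nalcn (adjusted p from 0.105 to 0.935). When each of the 20 libraries was left out in turn, Sptbn4 and Unc13a kept their F2 call every time, while Cacng8 and Nalcn each lost it 7 times.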

How the data were processed

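The deposited values were counts, whole numbers per gene and library made by the authors, with STAR 2.5.3a as aligner and GRCm38 as genome, per the submitters' processing notes. Libraries came from a stranded poly-A kit, per the labels' protocols. No source used here names the counting tool, its annotation or its use of strand. Library totals are nearly equal, as if libraries had been brought to 1 depth; the labels describe no such step, and the depth before it, if any, is unknown. 

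Channel genes, lists, scores and settings were chosen with earlier results of these data known. Counts were fitted for all genes with edgeR 4.0.16 (R 4.3.3; filterByExpr, TMM factors of 0.956 to 1.042, quasi-likelihood F test with robust dispersion, 1 mean per group, 20 libraries); the biological coefficient of variation was 18.1%. CPM used TMM-scaled totals, and log2 CPM a prior count of 2. The edgeR test gives no standard error, so each SE was derived as the absolute log2 fold change over the square root of F. DESeq2 1.42.0, limma 3.58.1, other scalings and filters, offsets, covariates and left-out libraries were alternatives. Levels per kilobase and GC content used the longest GENCODE M21 transcript, and promoters came from RefSeq (GRCm38.p6). Some genes were tested and counted with the rest but are not reported here by name or drawn. The other channel genes are accounted for; library values are given for the called genes and the highest of each class, and up to 4 genes per partner list are named, called ones first where reported. The labels call mice biological replicates, and littermates within a group would make the p-values too small. Precision rests on the 5 mice of a group. The edgeR fits, with and without the offset, were tested on simulated data. In the F2 simulation made for the offset, 237 unchanged genes passed in the fit lacking it. Only 7 passed once the offset was included. Genes changed 2-fold passed in numbers of 96 and 97. The trend put into these simulated counts was estimated by the same procedure as the offset, so a fall was built in. Changed genes were drawn without regard to GC content. How the offset treats real changes that go with GC content was therefore not tested. In the other F2 simulation, run for the main fit, 62 of 100 genes changed 1.5-fold passed, and 96 of 100 changed 2-fold. There 4 unchanged genes passed. Figures used Python 3.11.15 and matplotlib 3.10.9.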

Additional observations from a re-analysis of the deposited data

Results flagged for a closer look

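In 10 of 112 combinations of a channel gene and a group of 5 mice, or 8.93%, 1 library stood apart from the other 4 by Dixon's criterion, where chance flags about 5%. F2 stress replicate 14, the library with the lowest striatal score (4.75), gave 4 of them. It was the highest of its group for Cacna1b (172.5 CPM), Cacna1g (119.6 CPM), Scn7a (12 CPM) and Scn11a (3.87 CPM). Over all libraries Cacna1g and Scn11a were lower where the striatal score was high; whether this score accounts for the levels in replicate 14 was not tested. The other 6 came from 6 libraries. Cacna1d was low in F1 stress replicate 5 (51.3 CPM), Cacnb4 high in F1 stress replicate 1 (240.3 CPM), Scn2a low in F2 no-stress replicate 20 (312.0 CPM), Scn2b high in F2 no-stress replicate 16 (364.8 CPM), Scn3b high in F1 no-stress replicate 10 (225.3 CPM) and Scn7a high in F1 no-stress replicate 8 (6.56 CPM).

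The lineage effect differed between F2 and F1, in a test of the difference itself, for 2 partner genes. The F2 minus F1 effect was −1.0 for Sptbn4 and −0.52 for Unc13a on the log2 scale (edgeR, adjusted p = 0.0309 and 0.0472). With the GC and length offset the differences were −0.34 (adjusted p = 0.230) and −0.11 (adjusted p = 0.764). When each of the 20 libraries was left out in turn, the call of the difference was lost 11 times for Sptbn4 and 15 times for Unc13a.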

How the results depend on the processing

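In F2, where 2 channel genes were called, 0 were called with the GC and length offset and with only the groups compared, 7 with both scores as covariates, 5 without replicates 14 (F2 stress) and 20 (F2 no-stress) together, and 4 at an adjusted p below 0.1. Leaving out single libraries gave 0 to 5, with 0 without F2 stress replicate 11 or F2 no-stress replicates 16 or 17, 1 without F2 stress replicates 12 or 13, and 4 and 5 without F2 stress replicates 14 and 15. Of all genes 241 to 2431 were then called. In F1, where 0 were called, the covariates gave 3, with the difference between the group means of the scores left in the fold changes. For the difference between lineage effects, with 0 called, DESeq2 gave 2, the covariates 5, the removal of both libraries 3 and an adjusted p below 0.1 gave 1. Leaving out single libraries gave 0 to 4 for this difference, where 0 to 1501 of all genes were called. For F2 against F1 the no-stress lineage gave 1 in DESeq2, 4 with covariates and 1 at an adjusted p below 0.1 in place of 0, and the stress lineage 0 under every alternative run. With F1 libraries only 5, and with F2 libraries only 4, in place of 9 genes varied with the striatal score, and 3 and 1 in place of 6 with the pallial score; left-out libraries gave 9 to 12 and 4 to 6. Fewer samples enter these fits. With the GC and length offset Cacna1a turned to 0.021 in F2, against −0.37 without it, to 0.057 for the difference, against −0.45, and to −0.00022 for F2 against F1 in the no-stress lineage, against 0.31, and Cacng8 turned to 0.025 in F2, against −0.50. Among 150 values, of 30 channel genes in 5 comparisons, the offset changed the sign of 33. The cause of these changes was not tested. Other scalings (relative log expression, upper quartile, library totals) and filters left the number of called channel genes in F2 at 2. No paired analysis was possible because each mouse has its own replicate number. Genes below about 4 CPM, such as Scn7a, Scn10a, Scn11a, Cacna1s and Cacna2d4, rest on few counts, so their fold changes are imprecise.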
